A study of Mus musculus with 10 samples.

Results

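Of 31551 genes on the array, 262 parted the embryonic stem cell line J1 from each of 5 other mouse embryonic stem cell lines. In 180 of them the J1 mean lay at least 1 log2 unit below every other group mean, and in 82 it lay at least 1 above. Members were chosen on the normalized log2 values that the authors deposited, taking for each gene the probe with the highest mean, and the probe had to be well above background on all arrays of the higher side. These shares, 0.83% of genes in all, 0.571% of genes on the low side and 0.26% on the high side, and every difference from J1 given for a member are descriptions of what the rule selected, and none was tested. Hprt, which encodes the purine salvage enzyme hypoxanthine phosphoribosyltransferase, had by far the widest gap. No gene of a marker list for another cell type was among the members, but several of those lists differed in J1, as given with the data.

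Gene expression was measured on 10 one-colour arrays of 6 groups, each of them 1 cell line grown without feeder cells in serum and leukaemia inhibitory factor. As labelled, J1 is wild-type, PRDM14 (line JP-23) is wild-type with stable Prdm14 expression, and PRDM14_DNMT3B (line JP-23+3b-3) stably expresses Dnmt3b1 as well. Dnmt3b_KO (line 8bb) is Dnmt3b-/-, Dnmt1_KO (line 36) is Dnmt1-/- and TKO (line 19-1) is Dnmt1-/-, Dnmt3a-/- and Dnmt3b-/-. The first 4 groups had 2 arrays each, Dnmt1_KO and TKO had 1, and the labels do not say whether replicates were separate cultures, so any spread may be technical. No label names a change at Hprt or any other member, and the titles of both PRDM14 lines name J1. Hprt was nevertheless far lower on the arrays labelled J1 than in those lines, and the labels give no reason for it. The identity of these arrays was not tested, and J1 means the arrays labelled so. With 1 line a group a difference between lines and an effect of genotype cannot be told apart.

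Levels below are log2 intensities minus the 75th percentile of the same array, so 0 is that percentile and a level is comparable only within a probe. All 13 embryonic stem cell markers tested were well above background on all 10 arrays. Of these 13, 2 were higher and 5 lower in J1 than the mean of the other lines (limma, adjusted p under 0.05), with a median difference of -0.1. Of other markers, 7 of 8 for 2-cell-like cells were lower in J1 than the mean of the other lines and 0 higher (limma, adjusted p under 0.05), with a median difference of -4.02 and a summed intensity of 42.2 to 45.8 times the 75th percentile in J1 against 36.7 to 138.8 on the other arrays. For primed epiblast 3 of 5 were higher and 1 lower (median 1.44), but these 5 include Dnmt3b, which is targeted in Dnmt3b_KO and TKO. The difference of Dnmt3b is thus not independent of the labelled genotypes. For trophoblast 5 of 7 were higher and 0 lower (median 1.13), and for primitive endoderm 1 of 9 higher and 5 lower (median -0.63). Over all genes tested 20.1% were higher and 18.8% lower. The part of these markers in the differences of the members was not tested. Of the targeted genes, Dnmt3b stood at 7.60 and 7.57 in J1, 1.62 and 1.69 in Dnmt3b_KO and 1.99 in TKO, Dnmt3a stood at -0.18 and -0.34 in J1 and -6.38 in TKO, and Dnmt1 stood at 1.62 and 1.30 in J1, -2.68 in Dnmt1_KO and -3.15 in TKO. In PRDM14 the Dnmt3b probe stood at 5.0 and 5.05, and in PRDM14_DNMT3B, labelled as expressing Dnmt3b1, at 4.09 and 4.17, below both J1 and PRDM14. The Prdm14 probe stood at -0.08 and 0.09 in J1, -4.32 and -4.02 in PRDM14 and -6.35 and -6.42 in PRDM14_DNMT3B. The levels of both probes go against the labels of these lines. Whether the probes detect the transgenes is not known, and the lines are named as labelled. The arrays with replicate number 1 of J1, PRDM14_DNMT3B and Dnmt3b_KO shared slide 1 with Dnmt1_KO and TKO, and the other arrays of those 3 groups shared slide 2. The PRDM14 arrays were on slides of their own, where an effect of the slide cannot be told apart from the line. J1 replicate 2 stood apart from replicate 1 in the size of the set: without replicate 1 the rule found 660 genes (215 low and 445 high), and without replicate 2 it found 294 (180 low and 114 high).

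Hprt converts hypoxanthine and guanine back to nucleotides, and cells without it survive thioguanine, a property long used to select mutant stem cell lines. Imprinted genes are expressed from 1 parental copy under control of DNA methylation, many germ cell genes are held silent in stem cells by methylated promoters, and the expression of clustered histone genes is coupled to DNA replication. These classes are the background for a set chosen among lines that differ in DNA methyltransferases.

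Promoter sequences are shown for the genes with the widest gap in each direction that had a single entry, because CG dinucleotides, written in capitals, are the sites these enzymes methylate. The sequences are the 250 bases before the annotated start, 5′ to 3′ on the gene's strand, from RefSeq on GRCm38.p6. Hprt and Plagl1 were low in J1, and Pop4 was high.
Hprt (chrX:52987828-52988077, plus strand): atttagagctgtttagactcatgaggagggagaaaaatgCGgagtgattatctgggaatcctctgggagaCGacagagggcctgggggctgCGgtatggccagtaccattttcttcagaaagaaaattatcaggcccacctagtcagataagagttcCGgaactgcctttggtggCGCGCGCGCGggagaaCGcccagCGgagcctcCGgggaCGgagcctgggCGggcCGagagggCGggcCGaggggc
Plagl1 (chr10:13090582-13090831, plus strand): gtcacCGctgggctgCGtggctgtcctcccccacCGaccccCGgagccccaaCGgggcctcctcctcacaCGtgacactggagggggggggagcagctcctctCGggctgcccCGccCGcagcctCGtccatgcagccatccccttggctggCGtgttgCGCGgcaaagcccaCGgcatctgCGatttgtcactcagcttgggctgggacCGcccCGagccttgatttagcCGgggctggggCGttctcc
Pop4 (chr7:38271349-38271598, minus strand): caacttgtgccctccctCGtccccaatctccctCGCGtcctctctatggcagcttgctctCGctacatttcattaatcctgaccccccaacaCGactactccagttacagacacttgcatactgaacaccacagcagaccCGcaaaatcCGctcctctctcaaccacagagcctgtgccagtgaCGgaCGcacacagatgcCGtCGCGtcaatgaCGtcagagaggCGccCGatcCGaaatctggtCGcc
The Hprt and Pop4 stretches each held 17 CG, a count reached by 23.5% of all RefSeq promoters in the table over the same length, and that of Plagl1 held 19, reached by 19.7%. Over 300 bases, 250 before to 50 after the start, the median promoter held 18 CG for the 117 low members with an entry, 9 for the 31 high members with one, and 19 for the 12169 tested genes with one. At least 10 CG were found in 73.5% of the low members' promoters, 45.2% of the high members' and 75.3% over all genes tested. Every low member had to be well above background on all 8 other arrays. For the 10107 tested genes with an entry that were so, the median was 20 CG and 82.0% held at least 10. Only 36 of the 82 high members were well above background on all 8 other arrays, so the high side includes more genes with little signal outside J1. No methylation was measured here.

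**Figure D1:**
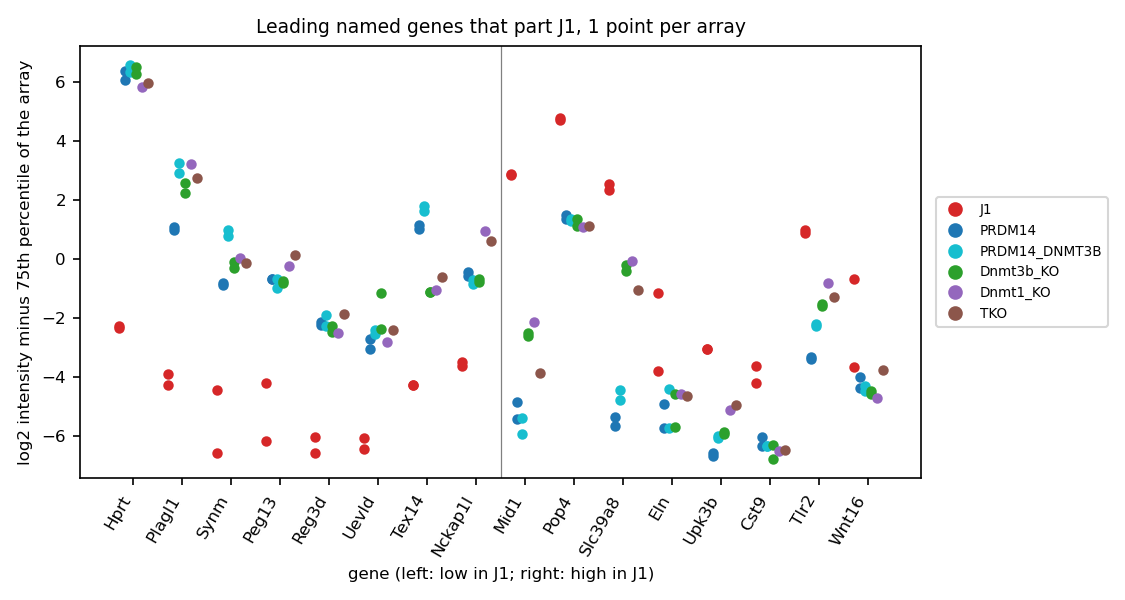
Levels (log2 intensity minus the 75th percentile of the array) of the 8 named genes with the widest gap in each direction, 1 point per array coloured by group. The J1 arrays lie below all others for the 8 genes on the left and above all others for the 8 on the right, and the J1 arrays lie far apart for Eln and Wnt16.

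Hprt had levels of -2.35 and -2.26 in J1, 6.06 and 6.35 in PRDM14, 6.33 and 6.56 in PRDM14_DNMT3B, 6.27 and 6.49 in Dnmt3b_KO, 5.81 in Dnmt1_KO and 5.95 in TKO. Both J1 arrays lay far below the other 8, which spanned 5.81 to 6.56, and Hprt was well above background on all 10 arrays, so a low signal remained in J1. The J1 level was 276-fold below Dnmt1_KO, the nearest group, and 430-fold below PRDM14_DNMT3B, the farthest. The probe lies on chrX:50374757-50374816 (mm9), and the gap was 8.16 within slide 1 and 8.74 within slide 2. The gap rests on this probe, since no other Hprt probe was well above background on all of the other 8 arrays. Among the 5 other lines the Hprt means spanned 0.64 log2 units, and a difference among them did not pass the test (adjusted p = 0.0765, moderated F test of limma).

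The genes around Hprt did not have a gap of that size. By the probe positions given for the array, which were not checked, 20 other genes were tested within 1 Mb of Hprt. Their median difference between J1 and the mean of the other lines was -0.15. In 17 of them the J1 arrays overlapped the others, Phf6, Gpc3 and Atf1 being the exceptions. Phf6, a chromatin protein gene 64.9 kb before the probe, stood at 2.98 and 3.18 in J1 against 2.04 to 2.91 in the others. The transcript ENSMUST00000151099, 34.6 kb after it, stood at -5.45 and -5.79 against -5.56 to -4.10. At 4 of the 20 genes J1 was at least 1 log2 unit lower: Gpc3, Ct55, 1700013H16Rik and Xlr. Gpc3, a cell surface proteoglycan gene, stood at 0.12 and 0.07 in J1 and from 0.36 to 1.98 in the others, while the other 3 overlapped.

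**Figure D2:**
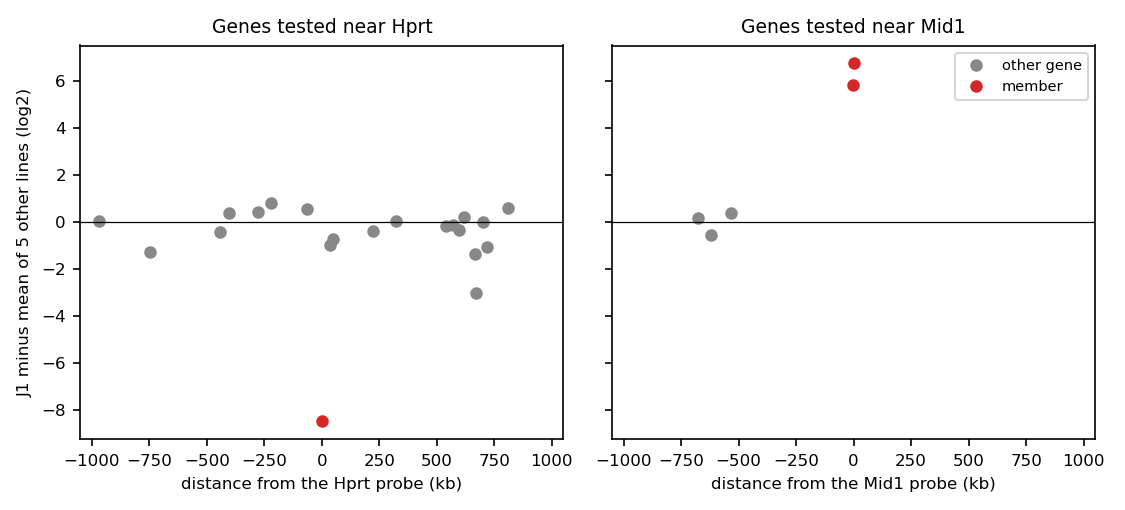
Difference between J1 and the mean of the 5 other group means (log2) against distance from the Hprt probe (left) and the Mid1 probe (right), 1 point per gene tested within 1 Mb. Hprt stands at -8.46 and no other gene in that panel lies below -3.01, and Mid1 and the adjacent probe A_55_P2181181 stand at 6.73 and 5.83 with 3 other genes near 0.

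The other genes of purine salvage and synthesis lay on both sides of the mean of the other lines. Of 43 tested genes on a purine list without Hprt, 10 were higher in J1 than the mean of the other lines, 10 were lower and 23 did not pass, where 39% of all 20450 genes tested passed (20.1% higher, 18.8% lower). The median difference was 0.13, against 0.07 over all genes. In the authors' value table the split was 5 higher and 10 lower, and without J1 replicate 2 it was 3 higher and 8 lower. With slide as a random block it was 15 higher and 10 lower, where 51.5% of all genes passed. Aprt, which salvages adenine in the parallel reaction, was 0.23 higher (SE 0.07, adjusted p = 0.0396, limma), with group means from 5.83 in TKO to 7.56 in PRDM14 around 6.75 in J1. The synthesis enzymes Paics, Atic and Ppat were higher by 0.35, 0.48 and 0.35, with adjusted p of 0.0154, 0.00342 and 0.0492 (limma). Gart, Pfas and Adsl of the same synthesis did not pass, with differences of 0.02, 0.09 and 0.28 (adjusted p = 0.913, 0.599 and 0.0625, limma). Adk, which phosphorylates adenosine, was lower by 0.62 (adjusted p = 0.00132) and Pnp, the purine nucleoside phosphorylase gene, by 0.40 (adjusted p = 0.00967). Pnp was lower still in Dnmt1_KO, at 5.19 against 5.49 in J1, and Ppat stood at 3.74 in PRDM14 against 3.72 in J1. Nt5e, the surface enzyme that makes adenosine, was higher too (adjusted p = 0.00123), but it was not well above background in PRDM14, PRDM14_DNMT3B or TKO, and its J1 mean of -0.32 lay below the 0.18 of Dnmt3b_KO.

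Imprinted genes gave 3 members of the 40 tested from a list of them, Plagl1 and Peg13 low and Cdkn1c high in J1. Of the 37 that were not members, 13 were higher and 12 lower in J1 than the mean of the other lines, beside 20.1% and 18.8% of all genes tested, with a median difference of 0.09 against 0.07. Plagl1, a zinc finger factor expressed from the paternal copy, stood at -4.25 and -3.88 in J1, 0.99 and 1.10 in PRDM14, 2.91 and 3.25 in PRDM14_DNMT3B, 2.22 and 2.57 in Dnmt3b_KO, 3.22 in Dnmt1_KO and 2.75 in TKO. J1, well above background on 1 of its arrays, was 34.6-fold below PRDM14, the nearest group, and the PRDM14 arrays were below those of the other 4 lines. Another Plagl1 probe 448 bases away parted J1 by 5.42 in the value table, and 2 more, at 1981 and 2411 bases, parted it by 0.11 and 0.26 and were dimmer in the other lines. Among the other lines Plagl1 was 2.03 higher in PRDM14_DNMT3B than in PRDM14 (SE 0.20, adjusted p = 0.00212), and 1.35 lower in PRDM14 than in Dnmt3b_KO (SE 0.20, adjusted p = 0.00322, limma).

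Peg13, a noncoding RNA, stood at -4.20 and -6.16 in J1, -0.69 and -0.67 in PRDM14, -0.67 and -0.99 in PRDM14_DNMT3B, -0.76 and -0.81 in Dnmt3b_KO, -0.23 in Dnmt1_KO and 0.12 in TKO. The J1 arrays lay 1.96 apart, with 1 of them well above background, and both were below the other 8, which lay within 1.11 of each other. Cdkn1c, an inhibitor of cyclin-dependent kinases expressed from the maternal copy, stood at 4.50 and 4.60 in J1, 2.32 and 2.33 in PRDM14, 2.23 and 2.31 in PRDM14_DNMT3B, 3.34 and 3.41 in Dnmt3b_KO, 2.47 in Dnmt1_KO and 3.13 in TKO. Both J1 arrays lay above all others, 2.26-fold over Dnmt3b_KO, the nearest. Outside J1, Cdkn1c was 1.05 lower in PRDM14 than in Dnmt3b_KO (adjusted p = 0.000305), 1.11 lower in PRDM14_DNMT3B (adjusted p = 0.000298) and 0.90 lower in Dnmt1_KO (adjusted p = 0.00327, limma).

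The widest gaps on the high side lay at Mid1, an X-linked ubiquitin ligase gene of the microtubules at the far end of the chromosome. Mid1 stood at 2.89 and 2.84 in J1, -4.83 and -5.41 in PRDM14, -5.93 and -5.38 in PRDM14_DNMT3B, -2.51 and -2.60 in Dnmt3b_KO, -2.13 in Dnmt1_KO and -3.87 in TKO. J1 was 31.9-fold above Dnmt1_KO, and Mid1 was well above background on 3 of the 8 other arrays, those of Dnmt3b_KO and Dnmt1_KO. Its second probe parted J1 by 5.68 in the value table, against 5.36 for the first. A_55_P2181181, 4.4 kb before the Mid1 probe, stood at 0.06 and -0.25 in J1 and was not well above background on any other array, which puts J1 at least 15.7-fold above each. LOC637916, named as similar to Mid1 and without a position, stood at 1.20 and 0.78 in J1 and from -6.65 to -3.85 elsewhere. These 3 probes may report 1 transcript or near-identical copies and are not independent genes. The nearest other gene tested, A_55_P2074411, lay 535.0 kb away, and Hccs, a mitochondrial haem enzyme gene, stood at 9.31 and 9.13 in J1 against 8.86 to 9.32.

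Pop4, a protein subunit of ribonuclease P and MRP, had the widest gap among high members measured on every array. It stood at 4.71 and 4.77 in J1, 1.34 and 1.50 in PRDM14, 1.30 and 1.36 in PRDM14_DNMT3B, 1.12 and 1.34 in Dnmt3b_KO, 1.09 in Dnmt1_KO and 1.12 in TKO. The other 8 arrays lay between 1.09 and 1.50, so J1 was 9.96-fold to 12.6-fold above them, by 3.41 within slide 1 and 3.41 within slide 2. A difference among the other lines did not pass the test (adjusted p = 0.209, moderated F test of limma). Its neighbour 1600014C10Rik, with a probe 68054 bases away, was also a high member, with a gap of 1.26 in the value table. Another 1600014C10Rik probe, 2334 bases from that one, had a gap of 0.16.

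From a germline list, 3 of 35 tested genes were members: Tex14, Tex11 and Piwil2, all low in J1. Of the 32 that were not members, 22 were lower in J1 than the mean of the other lines and 3 were higher, beside 18.8% and 20.1% of all genes tested, with a median difference of -0.92 against 0.07. The 2-cell-like markers given above were lower in J1 as well. Tex14, needed for the bridges between male germ cells, stood at -4.26 and -4.27 in J1, 1.03 and 1.15 in PRDM14, 1.63 and 1.80 in PRDM14_DNMT3B, -1.10 and -1.11 in Dnmt3b_KO, -1.06 in Dnmt1_KO and -0.61 in TKO. It was not well above background on either J1 array and J1 was at least 7.86-fold below each other line. Outside J1 both PRDM14 lines lay above the 3 knockout lines. Tex14 was 2.20 higher in PRDM14 than in Dnmt3b_KO (SE 0.09, adjusted p = 3.76e-05) and 2.82 higher in PRDM14_DNMT3B (SE 0.09, adjusted p = 2.87e-05), while Dnmt1_KO differed by 0.05 (adjusted p = 0.824, limma).

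Piwil2, which binds the small RNAs that silence transposons, stood at -3.92 and -3.57 in J1, -0.42 and -0.14 in PRDM14, -0.62 and -0.55 in PRDM14_DNMT3B, -2.56 and -2.94 in Dnmt3b_KO, -0.98 in Dnmt1_KO and -0.13 in TKO. J1 was lowest, and Dnmt3b_KO, 2.00-fold above it, was lower than the other 4 lines. Piwil2 was 2.62 higher in TKO than in Dnmt3b_KO (SE 0.23, adjusted p = 0.00135), 1.77 higher in Dnmt1_KO (SE 0.23, adjusted p = 0.00573) and 2.47 higher in PRDM14 (SE 0.19, adjusted p = 0.000289, limma). Tex11, an X-linked meiosis gene, stood at -3.40 and -2.99 in J1, -0.78 and -0.49 in PRDM14, -1.80 and -1.67 in PRDM14_DNMT3B, -2.41 and -2.11 in Dnmt3b_KO, -0.74 in Dnmt1_KO and -0.02 in TKO. It too was 2.24 higher in TKO (adjusted p = 0.0024), 1.52 higher in Dnmt1_KO (adjusted p = 0.00977) and 1.63 higher in PRDM14 (adjusted p = 0.00144) than in Dnmt3b_KO.

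Further members with known germ cell roles were picked out after their values were seen. Rnf17, a tudor domain protein of spermatids, Rec8, the meiotic cohesin subunit, Dnd1, an RNA-binding protein of primordial germ cells, Psma8, a proteasome subunit of the testis, and 4930447C04Rik, a synaptonemal complex protein, were low. Rec8 stood at 0.00 and -0.18 in J1, 0.99 and 0.91 in PRDM14, 1.60 and 1.55 in PRDM14_DNMT3B, 1.12 and 1.07 in Dnmt3b_KO, 1.87 in Dnmt1_KO and 1.96 in TKO. Its J1 arrays lay 0.91 below the lowest other array. Morc2b, a gene of male meiosis, was high. In this class 8 of 9 were low, with differences of -4.27 to -1.39, where 82.2% of the members with a RefSeq symbol were low.

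**Figure D3:**
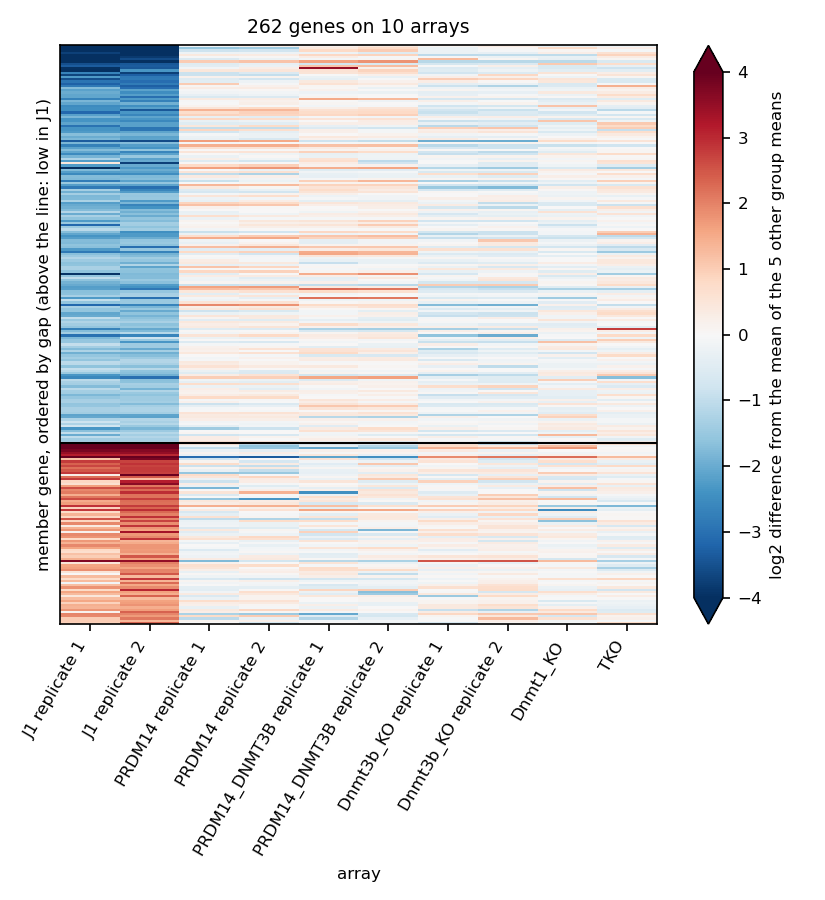
Log2 difference of each array from the mean of the 5 other group means for the 262 genes, ordered by gap, with the 180 low in J1 above the line and the 82 high in J1 below it. The columns of the J1 replicates differ from the other 8, and J1 replicate 2 is the stronger of the J1 columns on the high side.

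The remaining members spread over many functions, and 98 members were sorted by hand into 12 classes after their values were seen. Since 82.2% of all members with a RefSeq symbol were low, most members of a class can be low without setting it apart. No class was tested against that share. The class of metabolic enzymes held 16 low members and 1 high. Ephx2, the soluble epoxide hydrolase, stood at a mean of -1.01 ± 0.02 (SD, n = 2) in J1, 1.89 and 2.08 in PRDM14, 3.44 and 3.55 in PRDM14_DNMT3B, 2.31 and 2.55 in Dnmt3b_KO, 1.70 in Dnmt1_KO and 2.00 in TKO. J1 was 6.52-fold below Dnmt1_KO, the nearest group. Fggy, a carbohydrate kinase gene, stood at -1.62 and -2.21 in J1, 0.82 and 0.79 in PRDM14, 0.39 and 0.34 in PRDM14_DNMT3B, 0.92 and 0.86 in Dnmt3b_KO, 0.46 in Dnmt1_KO and 0.73 in TKO. All of the 3 other Fggy probes well above background parted J1 as well, by 1.18 to 2.04 in the value table, and the lines other than J1 did not pass the test for a difference (adjusted p = 0.196, moderated F test of limma). Rbks (ribokinase) and Uros of haem synthesis were further low members.

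DNA-binding and chromatin genes gave 15 low and 2 high members, with 14 of the 15 measured on both J1 arrays. The histone list gave 3 of 46 tested genes, H2ac18, H2bc4 and H2aw, and all were low. Of the 43 that were not members, 3 were higher and 9 lower in J1 than the mean of the other lines (median 0.01). Over all genes tested 20.1% were higher and 18.8% lower. H2ac18, an H2A gene, stood at -2.91 and -2.51 in J1, 0.11 and 0.07 in PRDM14, 1.26 and 1.07 in PRDM14_DNMT3B, -0.95 and -0.96 in Dnmt3b_KO, -0.82 in Dnmt1_KO and -0.71 in TKO. J1 was 3.37-fold below Dnmt3b_KO, and both PRDM14 lines were above the 3 knockout lines. Near-identical histone genes can share a probe, so which copy was read is uncertain. Of 358 tested genes named Zfp or on that list, Zfp229, Zfp3, Zfp750 and Zfp951 were low and Zfp334 was high. Of the 353 that were not members, 77 were higher and 64 lower in J1 (median 0.08). Zfp951 stood at -3.44 and -3.70 in J1, 1.56 and 1.42 in PRDM14, -0.94 and -1.08 in PRDM14_DNMT3B, -2.07 and -2.08 in Dnmt3b_KO, 0.61 in Dnmt1_KO and 0.42 in TKO. Its PRDM14 arrays were the highest, and those of Dnmt3b_KO were the lowest outside J1.

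Where 82.2% of members with a RefSeq symbol were low, neuronal and synaptic genes gave 14 low members and 1 high. They included Dnm1, the dynamin of synaptic vesicles, Slc12a5, a neuronal chloride transporter, Camk2b, a calcium-dependent kinase, and Stmn2, a microtubule regulator of axons. Their differences ran from -3.04 to -1.36, and J1 was measured on both arrays in 8 of the 14. The list of neural markers, not sorted by hand from the members, held no member. Of its 5 tested genes 1 was higher in J1 than the mean of the other lines and 0 were lower, with a median difference of 0.01. Another probe of Dnm1 had a gap of -0.18 in the value table and another of Slc12a5 one of -0.17, so J1 was not lowest there. Among cytoskeletal genes Synm, an intermediate filament protein, stood at -6.55 and -4.42 in J1, -0.87 and -0.80 in PRDM14, 0.77 and 0.99 in PRDM14_DNMT3B, -0.29 and -0.09 in Dnmt3b_KO, 0.05 in Dnmt1_KO and -0.13 in TKO. The J1 arrays were not well above background, at least 9.67-fold below PRDM14, but 4 other Synm probes on the array did not part J1, with gaps from -0.97 to 0.34. Synm is therefore a member through 1 of its probes.

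Of the 5 RNA and ribosome genes, 3 were low. In all, 41 members had another probe well above background on the higher side: every such probe passed the gap for 15, some for 3 and none for 23. Inpp5e, Purg, Scube2, Dnm1 and Slc12a5 were among the 10 where another probe put J1 level with or beyond another group. The part of probe position or sequence differences in these cases was not tested.

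Immune genes gave 6 low members and 1 high. Nckap1l, a regulator of actin in blood cells, was not well above background in J1 and at least 6.89-fold higher in each other line. Tlr2, a receptor for bacterial lipoproteins, was the high one and stood at 0.98 and 0.87 in J1, -3.40 and -3.32 in PRDM14, -2.19 and -2.27 in PRDM14_DNMT3B, -1.58 and -1.51 in Dnmt3b_KO, -0.82 in Dnmt1_KO and -1.30 in TKO. J1 was 3.36-fold above Dnmt1_KO and 19.6-fold above PRDM14, and all 10 arrays were well above background. Slc39a8, a zinc and manganese importer, stood at 2.32 and 2.54 in J1, -5.35 and -5.64 in PRDM14, -4.42 and -4.76 in PRDM14_DNMT3B, -0.42 and -0.19 in Dnmt3b_KO, -0.07 in Dnmt1_KO and -1.05 in TKO. J1 was 5.68-fold above Dnmt1_KO, and neither PRDM14 line was well above background. Of the proteases and inhibitors, Napsa, Cst9 and Cst13 were high and Serpinb1a was low.

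Among the 15 low members with the widest gaps, Reg3d (a secreted lectin), Uevld, A630089N07Rik, Col22a1 (a collagen), Otud7a and the probe A_55_P1993371 were not well above background in J1 either, with J1 at least 1.30-fold below the nearest line for Otud7a and 3.66-fold for A630089N07Rik. A_55_P2028139 was measured on both J1 arrays, at -3.70 and -3.50 against -0.09 to 1.86. Among the 15 high members with the widest gaps, ENSMUST00000131176, ENSMUST00000149909, A_55_P2417003, Upk3b (a urothelial protein), Cst9 and 4930434F21Rik were not well above background outside J1. ENSMUST00000070897 was measured on all 10 arrays, at 1.91 and 1.76 in J1 against -1.58 to -0.82. A_55_P2158324 stood at -3.68 and 0.00 in J1, against -4.61 to -3.23.

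Some high members had J1 arrays that lay far apart. Eln, the elastin gene, stood at -3.78 and -1.14 in J1, -5.72 and -4.92 in PRDM14, -4.39 and -5.71 in PRDM14_DNMT3B, -4.56 and -5.69 in Dnmt3b_KO, -4.57 in Dnmt1_KO and -4.64 in TKO. Its J1 arrays differed by 2.64, and no other array was well above background. Wnt16, a Wnt ligand, stood at -3.67 in J1 replicate 1 and -0.68 in replicate 2, against -4.69 to -3.74 in the others, so replicate 1 lay only 0.08 above the highest other array. Across the 82 high members J1 replicate 2 was above replicate 1 in 62, by a median of 0.24, and the J1 arrays differed by over 1 in 24. Across the 180 low members replicate 2 was above replicate 1 in 86, with a median difference of -0.03, and they differed by over 1 in 11.

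J1 arrays and the other 8 arrays did not overlap for 179 low members, where both J1 arrays lay below all others for 7.98% of the genes tested, and for 71 high members, where both lay above for 10.7%. The rule used these values, and nothing is read from the counts. A gap of at least 1 was kept within both slides by 109 low and 47 high members. The median difference between J1 and the mean of the other lines was -1.81 on the low side and 1.82 on the high side. J1 was well above background on both arrays for 117 low members, on 1 for 23 and on neither for 40, so the last have only a bound. At the threshold, Mrpl57, Syngr4 and Pgam2 lay just inside with gaps of 1.002, 1.003 and 1.005, and Gramd1b, H3c15 and Ctsb just outside at 0.999, 0.994 and 0.993. On the high side Cdhr5, AI503301 and A_55_P2103952 lay inside at 1.003, 1.004 and 1.009, and ENSMUST00000055957, A_55_P2057912 and B230311B06Rik outside at 0.996, 0.994 and 0.992.

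By position, chromosome 14 held 28 of the low members, 3.56% of the genes tested there against 0.78% on the other chromosomes, and 27 of the 28 lay between 43 and 75 Mb (mm9), a stretch chosen after the positions were seen. In that stretch the 371 tested genes that were not members also had a median of -0.58 and -0.56 on the J1 arrays relative to the mean of the other lines, where the other 8 arrays lay between -0.18 and 0.13. The J1 values elsewhere on the chromosome were 0.15 and 0.12. Members in the stretch included Ephx2, Piwil2, Rnf17, Rec8, Cenpj and Ift88, the last pair being genes of the centriole and the cilium. Chromosome 8 had 10 low and 0 high members of 1072 genes tested, and its other genes had a median difference of -0.146. On the chromosomes other than 8 and 14 that median ran from 0.006 (chromosome 11) to 0.147 (chromosome Y). A list of Y-linked genes held no member, but of its 5 tested genes 3 were higher and 1 lower in J1. Over all genes tested 20.1% were higher and 18.8% lower. The median difference of these 5 was 2.17, with a summed intensity of 15.7 to 18.8 times the 75th percentile in J1. On the other arrays it was 0.1 to 16.8. The cause of these shifts was not tested.

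**Figure D4:**
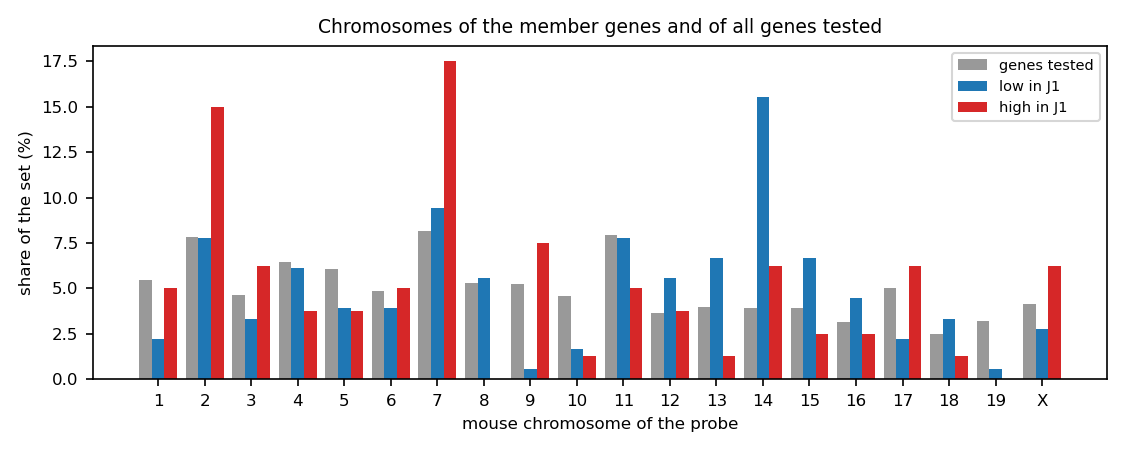
Share (%) of the genes tested, of the low members and of the high members that lie on each chromosome, by probe position. Chromosome 14 holds 15.56% of the low members and 3.9% of the genes tested, and chromosome 7 holds 17.5% of the high members and 8.16% of the genes tested.

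Positions of members were also set against each other, with no comparison to other sets of genes. Within 500 kb of another member there were 71 of the 260 with a position, in 30 clusters, and 21 clusters had members on 1 side of J1. The largest, on chromosome 14 from 57143690 to 58535147, held 8 low members: Rnf17, Cenpj, ENSMUST00000095785, Cryl1, Ift88, Xpo4, Mrpl57 and Micu2. Their differences ran from -2.85 for Rnf17 to -1.10 for Mrpl57. A second on chromosome 14 held Bin3, Ppp3cc, Piwil2 and Reep4, and 1 on chromosome 13 held Gm7969, BY726210, AA414992 and A_55_P2003981, all low. Chromosome 7 differed from these: 6 of its 7 clusters held members of both sides. Examples were Uevld at -3.78 and A_55_P2092889 at 1.58, with starts at 54178671 and 54060473, and Otud7a at -3.46 and A_55_P2064038 at 1.87. On chromosome 2, 3 of 7 clusters held both sides as well, such as Slc12a5 at -1.76 and Zfp334 at 1.25. Other neighbours that were both low were Srr and Hic1 and Rnf157 and ENSMUST00000149682 on chromosome 11, Eda and Tex11 on chromosome X, Pter and Cubn on chromosome 2, Sema5b and Fam162a on chromosome 16, and Nrn1l and Pskh1 on chromosome 8. On chromosome 2 Cst9 and Cst13, cystatin genes with probes 8283 bases apart, were both high.

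The rule compared every line with J1 and did not set how the other lines compare with each other, although their means entered it. Among those 5 lines, 114 of 180 low members differed (moderated F test of limma, adjusted p under 0.05), where 56.7% of all genes tested and 57.1% of those well above background on all 8 of their arrays did. Of the 82 high members 28 differed, but 46 of the 82 lacked signal well above background on at least 1 of the 8 arrays, and of the 36 that had it on all 8, 15 differed. Among members measured on all 8 arrays, the group means of Cubn spanned 4.10, those of Echdc3 3.69 and those of Zfp951 3.56, and the narrowest spans were 0.11 for A_55_P2113768 (adjusted p = 0.939), 0.12 for Purg (adjusted p = 0.891) and 0.17 for Mlec (adjusted p = 0.674).

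Between PRDM14_DNMT3B and PRDM14, 50 of 180 low members differed, 28 higher and 22 lower in the former, and 16 of 82 high members, 9 higher and 7 lower. Of all genes tested 23.2% passed (11.4% higher and 11.8% lower), and of those well above background on all 8 arrays, as every low member had to be, 24.6% did (12.1% higher and 12.5% lower). Without PRDM14 replicate 1 the count over both sides fell from 66 to 31, and without replicate 2 to 34. Zfp951 was 2.50 lower in PRDM14_DNMT3B (SE 0.12, adjusted p = 0.000487), ENSMUST00000151032 was 2.38 higher (SE 0.24, adjusted p = 0.00229) and Ptprv, a receptor phosphatase gene, was 2.07 higher (SE 0.15, adjusted p = 0.000895, limma). Ephx2 was 1.51 higher (SE 0.12, adjusted p = 0.00108). Each of these was measured on all 4 arrays.

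Against Dnmt3b_KO, 83 low members differed in PRDM14, 63 higher and 20 lower, and 22 high members did, 6 higher and 16 lower, where 41.1% of all genes tested passed (23% higher and 18% lower) and 42.5% of the bright ones (24% higher and 18.5% lower), bright meaning well above background on all 8 arrays. Slc39a8 was at least 19.4-fold lower in PRDM14 (adjusted p = 2.54e-05) and A_55_P1968673 at least 4.63-fold lower (adjusted p = 0.000468), since neither was well above background there. Echdc3 was 3.69 higher (SE 0.18, adjusted p = 6.22e-05, limma). In PRDM14_DNMT3B against Dnmt3b_KO 86 low members differed, 75 higher and 11 lower, and 18 high members, 4 higher and 14 lower, where 34% of all genes passed (17.8% higher and 16.3% lower) and 34.8% of the bright ones (18.4% higher and 16.4% lower). Slc39a8 was at least 13.6-fold lower (adjusted p = 5.36e-05), A_55_P1968673 at least 3.24-fold lower (adjusted p = 0.000572) and Mid1 at least 2.87-fold lower (adjusted p = 0.000406, limma). The median difference of low members was 0.34 in this comparison, against 0.06 over all genes, and that of high members was -0.11. The PRDM14 lines share Dnmt3b_KO as their comparison, so these counts are not independent of each other.

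In Dnmt1_KO 39 low members differed from Dnmt3b_KO, 29 higher and 10 lower, and 11 high members, 3 higher and 8 lower, where 19.5% of all genes passed (9.58% higher and 9.89% lower) and 18.5% of the bright ones (7.15% higher and 11.4% lower). Napsa, an aspartic protease gene, was at least 4.33-fold lower in Dnmt1_KO (adjusted p = 0.000148) and Cst13 at least 3.24-fold lower (adjusted p = 0.0019), while Zfp951 was 2.68 higher (SE 0.14, adjusted p = 0.000332, limma). With slide as a random block the count over both sides rose from 50 to 76, and without Dnmt3b_KO replicate 2 it fell to 31. In TKO 56 low members differed, 44 higher and 12 lower, and 10 high members, 1 higher and 9 lower, where 20.8% of all genes passed (10.7% higher and 10.1% lower) and 19.9% of the bright ones (8.84% higher and 11% lower). Cubn, an endocytic receptor gene, was 3.95 higher in TKO (SE 0.28, adjusted p = 0.000732), and A_55_P1968673 and Cst13 were at least 3.64-fold and 3.20-fold lower (adjusted p = 0.00231 and 0.00111, limma). Without Dnmt3b_KO replicate 2 the count over both sides fell from 66 to 41. With a single array for Dnmt1_KO and for TKO, the fit takes their spread from the groups with 2.

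Among the 36 bright high members, 11 differed in each of PRDM14_DNMT3B against PRDM14, PRDM14 against Dnmt3b_KO and PRDM14_DNMT3B against Dnmt3b_KO (30.6%, beside 24.6%, 42.5% and 34.8% of bright genes). In Dnmt1_KO and TKO against Dnmt3b_KO, 7 (19.4%) and 4 (11.1%) did, beside 18.5% and 19.9%.

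**Figure D5:**
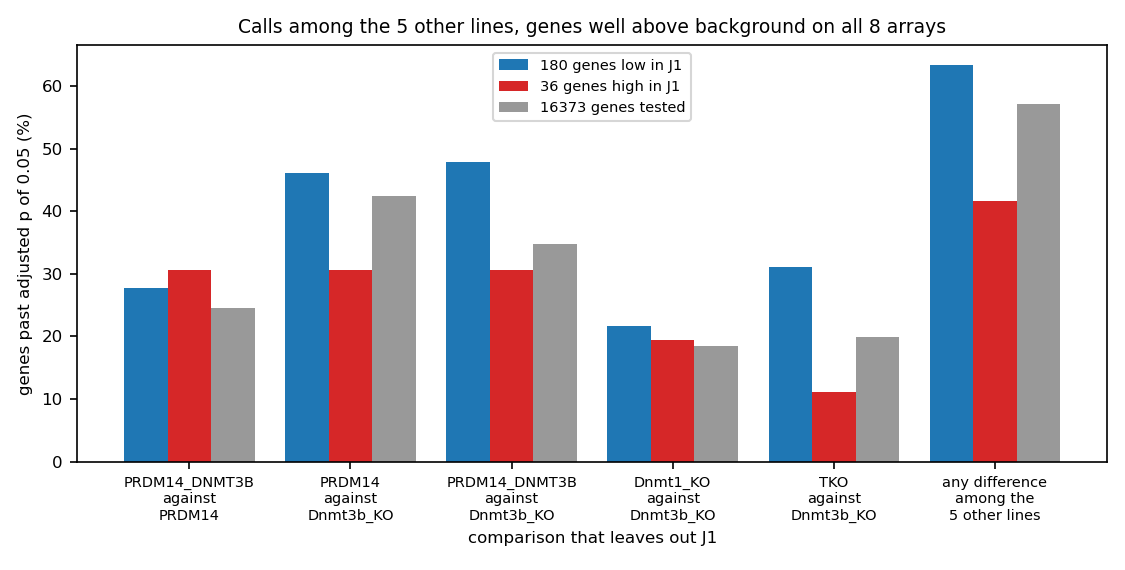
Percentage of the 180 low members, the 36 high members and the 16373 genes tested that passed an adjusted p of 0.05 in each comparison that leaves out J1 (limma), taking genes well above background on all 8 arrays of the other lines. The bars of low members run from 21.7% to 63.3%, those of high members from 11.1% to 41.7% and those of all such genes from 18.5% to 57.1%.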

How the data were processed

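The 10 scanner files deposited by the authors hold 1 fluorescence intensity per spot and, per the file headers, were made with Agilent Feature Extraction 10.7.3.1, with 60-base probes placed on mm9. The authors' value table holds log2 values whose sorted columns are nearly identical between arrays, which is what quantile normalization gives; limma is named in the submitters' processing notes without a version. Between 50.03% and 56.03% of an array's spots were well above background, none was saturated, and the number of arrays limits the precision. Members were found in the value table after control probes and probes named chr or lincRNA were dropped. Levels are log2 intensity minus the 75th percentile of the array, with spots of 1 probe averaged. The fit (limma 3.58.1, R 4.3.3) held 20450 genes, each with 1 or more groups whose arrays were all well above background, without covariates, with 4 residual degrees of freedom; adjusted p is Benjamini-Hochberg over all genes. The fitting script was tested on simulated data. Fold changes are "at least" where no array of the dimmer group was well above background: its mean then uses on each array the dimmest signal of any probe that was, or the probe's own if brighter. Names were updated through RefSeq (GRCm38.p6), which matched 26582 of 28116 accessions; 197 of the 262 members have a RefSeq symbol. Exon, intron and UTR positions are not given, for want of an mm9 annotation here. Members, lists, comparisons and alternatives were chosen with earlier results of these data known. Named genes are Hprt, the 15 members with the widest gap in each direction, members within 500 kb of another, members of the lists, the 3 called members with the largest difference in each comparison, those next to the threshold and genes within 1 Mb of Hprt; members named by function were added after their values were seen. Some members are not reported by name here.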

Additional observations from a re-analysis of the deposited data

Results flagged for a closer look

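Probes named only by a chromosome position or as lincRNA were left out of the set, and 110 of 16194 such probes parted J1 by the same rule, 38 low and 72 high. That is 0.68% of them, against 0.83% of the genes. These probes are transcripts outside the main measurement, and no test was made of them.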

How the results depend on the processing

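The set of 262 became 152 when every J1 array had to lie at least 1 from every other array, 37 at a gap of 2, 153 with all 10 arrays well above background, 1271 within slide 2 alone, which holds 3 groups, and 15 where 2 or more probes all had to part J1. Leaving out single arrays gave 258 to 660, the highest without J1 replicate 1, and 203 of the 262 were found again without J1 replicate 2. With scanner intensities it was 239, of which 208 were shared. In Dnmt1_KO against Dnmt3b_KO the 50 calls became 33 with no filter on dim probes and 76 with slide as a random block, and 31 to 58 when single arrays were left out. In PRDM14 against Dnmt3b_KO 105 became 69 of 153 with all 10 arrays well above background. Leaving out single arrays gave 31 to 79 in PRDM14_DNMT3B against PRDM14, 41 to 71 in TKO against Dnmt3b_KO and 11 to 20 in the purine list, which had 13 with no filter. The 142 members that differed among the other lines stayed within 1.5 times under all 13 alternatives run. Over all genes tested, removing the filter took the calls from 4743 to 2888 (PRDM14_DNMT3B against PRDM14), from 3982 to 2351 (Dnmt1_KO against Dnmt3b_KO) and from 4248 to 2858 (TKO against Dnmt3b_KO), and the random block gave 6569 for Dnmt1_KO. Single arrays left out of the groups compared gave 2032 to 2649, 2056 to 2249 and 2535 to 2760 in the same order, and 5079 for J1 without replicate 2, against 7968. The cause was not tested. Replicate numbers are not stated to pair the arrays, and deviations of equal numbers correlated at 0.096 to 0.229. With a replicate block over the 8 arrays of replicated groups the calls were 86, 122 and 117 in PRDM14_DNMT3B against PRDM14 and in PRDM14 and PRDM14_DNMT3B against Dnmt3b_KO. No replicate block could be had for Dnmt1_KO and TKO, with 1 array each, nor was it run for the purine list and the test among all 5 lines. Slide as a fixed block was run only for comparisons within slides 1 and 2.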
